A study of Mus musculus with 6 samples.

Results

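The mouse miR-297, miR-466, miR-467 and miR-669 families were followed over 3 kinds of tissue macrophage. The members were chosen by name only, as every array row whose miRNA name carries one of these 4 family numbers. The rule took 61 of the 1247 mouse miRNAs on the array, namely 3 of miR-297, 23 of miR-466, 12 of miR-467 and 23 of miR-669, and left 1186 others. The arrays were 1-colour Agilent miRNA arrays, 6 in all and 2 per group, each hybridised with 100 ng of Cy3-labelled total RNA. The groups were microglia of the brain (intermediate for CD45, positive for CD11b and F4/80, lacking Ly6C and Ly6G), macrophages of the colon (positive for CD45, CD11b, CD11c and CD64, lacking Ly6C) and macrophages of the liver, or Kupffer cells (carrying CD64 and MHCII beside CD45, CD11b and F4/80). All came from wild type male C57BL/6J mice, aged 6 weeks in the sample labels and up to 8 weeks in the design text. A replicate is a pool of 4 to 6 mice on its own array, and the spread given below is that between 2 pools.

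A miRNA is a short RNA that guides an Argonaute protein to partly matching mRNAs, mainly through its seed, and a hairpin precursor can give a miRNA from its 5p arm and another from its 3p arm. Many genes of these families lie in tandem copies within an intron of Sfmbt2, a Polycomb-group gene that is expressed from the paternal allele in the early mouse embryo and in extraembryonic tissue. The intronic cluster is rodent-specific and is known for its part in the development of the mouse placenta. Several members have also been studied in mouse macrophages and microglia. miR-467b was reported to act on lipoprotein lipase mRNA, miR-466l on the AU-rich element of Il10 mRNA and miR-669c on Myd88 mRNA.

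By the RefSeq gene table of assembly GRCm38.p6, Sfmbt2 lies on chromosome 2 and its span holds 72 miRNA genes. For 49 of the 61 members every gene copy lay inside that span, for 3 (miR-297a-3p, miR-466f-3p and miR-466f-5p) some copies lay inside and some outside, and for 8 all copies lay outside. No gene of the same name was found for miR-466a-5p. The members outside were miR-466i-3p, miR-466i-5p, miR-466j, miR-466k, miR-466q, miR-467f, miR-467g and miR-669n, which share a family name with the cluster but not its place. None of the 1186 other miRNAs had a gene within the span.

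Mature sequences in RefSeq could be matched for 7 members, all of them outside Sfmbt2. They are shown because they hold the CA-rich and UG-rich repeats of these members, whose levels are given below. Each is printed 5′ to 3′ with its seed, bases 2 to 8, in capitals.
miR-466i-3p: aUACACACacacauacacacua
miR-466q: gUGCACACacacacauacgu
miR-467f: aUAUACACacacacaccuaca
miR-467g: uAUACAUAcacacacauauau
miR-466j: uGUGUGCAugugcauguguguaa
miR-466k: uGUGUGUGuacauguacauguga
miR-669n: aUUUGUGUguggaugugugu

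No pair of the 7 shared a seed, although the family names join miR-466i-3p, miR-466q, miR-466j and miR-466k. The first 4 are CA-rich, with unbroken runs of alternating C and A of 11, 12, 12 and 9 bases, and the last 3 are UG-rich, with runs of alternating U and G of 7, 9 and 8 bases. On assembly GRCm38.p6 miR-466i-3p lies at chr13:17747552-17747573 on the plus strand and miR-466q at chr3:28419988-28420007 on the plus strand. miR-467f lies at chr11:69635419-69635439 and miR-467g at chr5:34732872-34732892, both on the minus strand. The UG-rich miR-466j lies at chr10:60960802-60960824, miR-466k at chr3:85467396-85467418 and miR-669n at chr3:115979905-115979924, all on the plus strand. The motif ACACACAC, searched in the mature RNA strand, occurred in 4 of the 1017 array miRNAs with a sequence (0.393%), all of them members. UGUGUGUG occurred in 7 of 1017 (0.688%), of which miR-466k and miR-669n are members.

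The arrays differed in how much they detected. Between 300 and 403 of the 1247 miRNAs passed the scanner software's detection flag per array, the fewest in both microglia pools (300 and 330), with 403 and 352 in the colon pools and 386 and 389 in the liver pools. miR-142-3p, a miRNA of the blood cell lineage, had a level of 11.24 to 12.31 on every array. Levels are log2 of the signal after scaling each array to a shared 75th percentile, taken from the 248 miRNAs that all arrays detected, and 1.64 is the floor given to a miRNA that was not detected. The brightness of a probe also depends on its sequence, so levels are compared between arrays within a miRNA and not between miRNAs. In sorted bulk samples fewer cells that contain a miRNA and less of it per cell cannot be told apart. Markers of other cell types were seen as well, such as the hepatocyte miRNA miR-122-5p, whose level was 8.11 and 7.30 in the microglia pools and 11.07 and 11.82 in the liver pools, and which was not detected in the colon pools.

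Detection of the members was uneven. No array detected 33 of the 61 (54.1%), against 732 of the 1186 others (61.7%). Among the undetected were all 3 miR-297 rows, both arms of miR-466l and every miR-669a row, although Mir669a has 12 gene copies inside Sfmbt2. At least 1 array detected 12 of 23 miR-466 members, 6 of 12 miR-467 members and 10 of 23 miR-669 members. The microglia arrays detected 15 and 16 members, the colon arrays 24 and 24, and the liver arrays 23 and 11. The 2 liver arrays therefore differed more from each other in this count than the microglia arrays did from either, while their totals over all miRNAs were 386 and 389.

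The number of members detected went with the arm of the hairpin. Of 25 rows named 5p, 3 and 3 were detected in the microglia pools, 12 and 12 in the colon pools, and 12 and 1 in the liver pools. Of 26 rows named 3p, the counts were 8 and 9 in the microglia pools, 7 and 7 in the colon pools, and 6 and 6 in the liver pools. The 10 rows with no arm in their name gave 4 and 4, 5 and 5, and 5 and 4 in the same order of groups. The counts of 5p members thus rose and fell between arrays, while the counts of 3p members stayed within 6 to 9. The other miRNAs on the array did not show that swing: of their 448 rows named 5p, 121 and 130 were detected in the microglia pools and 125 to 147 in the colon and liver pools. Like counts did not mean the same rows. The 3p rows miR-466b-3p and miR-467a-3p were detected in microglia and not in liver macrophages. The 5p rows miR-467b-5p and miR-467e-5p were detected in microglia only, against the course of the 5p counts.

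**Figure D1:**
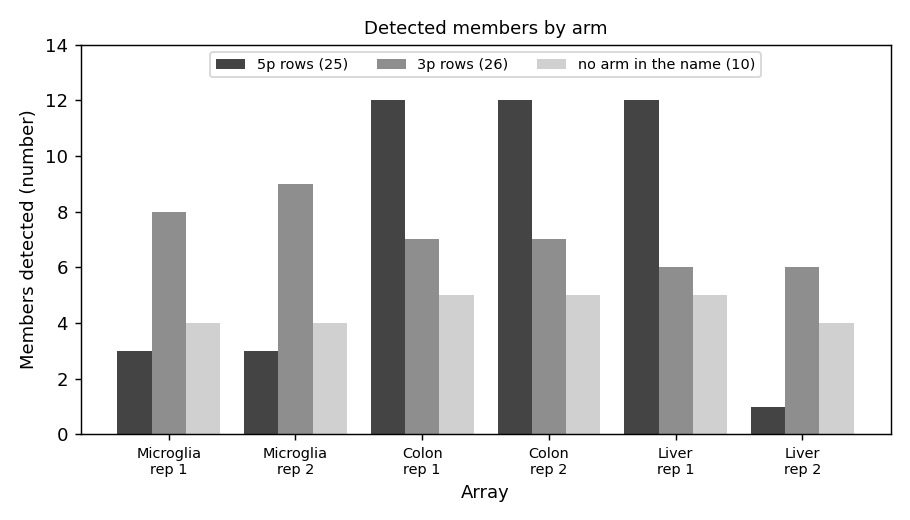
Number of members detected (vertical axis) on each of the 6 arrays (horizontal axis), with 1 bar each for the 25 rows named 5p, the 26 rows named 3p and the 10 rows with no arm in their name. The 5p bars stand at 12 in both colon pools and liver replicate 1, and at 3, 3 and 1 in the microglia pools and liver replicate 2.

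The 28 detected members fell into a few patterns. On all 6 arrays, 11 were detected: miR-466f-3p, miR-466g, miR-466h-3p, miR-466i-3p, miR-466i-5p, miR-466q, miR-467f, miR-669c-3p, miR-669f-3p, miR-669n and miR-669p-3p. Another 12 were detected in both colon pools and liver replicate 1 and on no other array: miR-466c-5p, miR-466f-5p, miR-466h-5p, miR-466j, miR-466m-5p, miR-467c-5p, miR-669b-5p, miR-669e-5p, miR-669f-5p, miR-669k-5p, miR-669l-5p and miR-669o-5p. Of these 12, 11 are 5p rows and 10 have all their genes inside Sfmbt2. Both microglia arrays and no other detected 3 members, miR-466b-3p, miR-467b-5p and miR-467e-5p, all with every gene copy inside Sfmbt2. miR-467a-3p was detected on the microglia and colon arrays, and miR-467d-3p only on microglia replicate 2, at a level of 3.0.

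**Figure D2:**
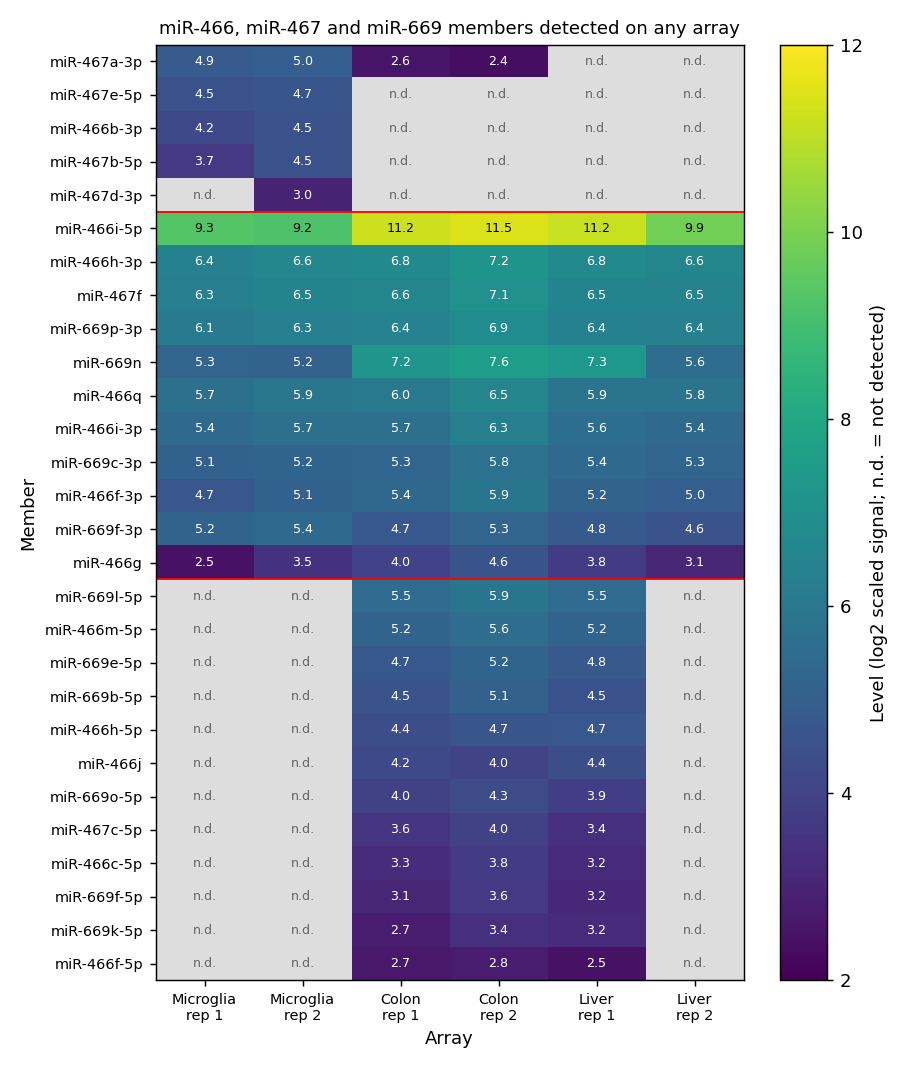
Level (log2 scaled signal, colour and printed value) of the 28 detected members (rows) on the 6 arrays (columns), with n.d. where a member was not detected. The 12 members under the lower red line have values in the colon pools and liver replicate 1 only, and the 5 above the upper line have their highest values in the microglia pools.

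The pattern of both colon arrays with liver replicate 1 was held by 12 of 61 members (19.7%) and by 4 of 1186 other miRNAs (0.337%). The signal of the 12 members stood at 3.56 to 11.7 times its own error, with a median of 6.54. For the 11 members detected on all arrays the same ratio ran from 4.13 to 18.5, with a median of 11.4.

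Microglia were set against colon macrophages to ask which members separate the brain from the gut population. In microglia 4 of the 27 members tested were higher and 9 were lower. Across all 379 miRNAs tested in this comparison 17.7% were higher, 28.5% were lower and 46.2% passed the test in either direction, with a median change of -0.43. The members' shares of calls were thus close to those of the whole array. The median change of the 27 was -1.33, but 12 of them entered the test only through the colon arrays, where they are high, and 3 only through the microglia arrays. Over the 11 members detected on all 6 arrays, which no group's level selected, the median was -0.47, against -0.04 for all 248 such miRNAs. For 25 of the 27 members the levels of the 2 groups did not overlap, against 85.2% of all miRNAs tested. The test was limma's moderated test on log2 levels over all 6 arrays, 2-sided, with Benjamini-Hochberg adjustment over all miRNAs tested and a threshold of 0.05. With scaling on the median, with quantile normalization and with the authors' deposited value table, the calls were 4 higher and 0 lower. Over all miRNAs tested those 3 settings gave 112 higher and 69 lower, 100 higher and 59 lower, and 95 higher and 65 lower, against 67 higher and 108 lower here. Spike-in scaling went the other way, with 4 members higher and 11 lower, of which 7 of the 15 were among the 13 calls here, and with 29 higher and 139 lower of all miRNAs; with no scaling the members' split stayed 4 and 9 and all miRNAs gave 29 higher and 108 lower.

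Against liver macrophages, 4 of 15 members tested were higher in microglia and 0 were lower by limma, with a median change of -0.08. These 4 members entered the test only through the microglia arrays, where they are high. The 12 members detected on liver replicate 1 and not in microglia could not enter it. At an unadjusted p under 0.05 the same comparison gave 4 higher and 1 lower. Over all 382 miRNAs tested 21.2% were higher and 31.7% lower in microglia, 52.9% in either direction, with a median of -0.60. Over the 11 members detected on all 6 arrays the median was -0.17, against 0.03 for all 248 such miRNAs. The same microglia arrays enter both comparisons, and the same 4 members were the ones higher in each. Arrays did not overlap for 9 of the 15 members, against 81.4% of all. Spike-in scaling gave 4 members higher and 8 lower (35 higher and 170 lower of all miRNAs), and no scaling 4 higher and 1 lower (36 and 126 of all). Median scaling gave 5 higher and 0 lower (124 and 108 of all), while the authors' deposited table and quantile normalization gave 4 higher and 0 lower (107 and 99, and 110 and 90 of all).

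The 4 members higher in microglia were miR-466b-3p, miR-467a-3p, miR-467b-5p and miR-467e-5p. Among the genes of these miRNAs, Mir466b has 8 copies and Mir467a has 10 copies, all inside Sfmbt2. A bound ("at least") sets a mean against the lowest detected signal of the arrays without detection. In the liver pools that averaged 1.46, under the common floor of 1.64 that enters the log2 changes, so bounds against liver macrophages exceed the fold of the fitted log2 change, which is given beside them. miR-467e-5p had levels of 4.50 and 4.67 in the microglia pools and was not detected on either colon or either liver array. Its mean in microglia was 4.59 ± 0.12 (SD, n = 2), at least 7.02-fold above colon macrophages (log2 change 2.95, SE 0.24, limma adjusted p = 0.00145) and at least 8.75-fold above liver macrophages (fitted log2 change 2.95, limma adjusted p = 0.00119). Both microglia arrays stood clear of every other array.

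miR-466b-3p had levels of 4.21 and 4.49 in the microglia pools and was likewise not detected in colon or liver macrophages. That placed its mean of 4.35 ± 0.19 (SD, n = 2) at least 5.94-fold above colon macrophages (log2 change 2.71, SE 0.25, limma adjusted p = 0.00177) and at least 7.41-fold above liver macrophages (fitted log2 change 2.71, limma adjusted p = 0.00127). The groups did not overlap.

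miR-467b-5p, from the gene whose product was reported to act on lipoprotein lipase mRNA in mouse macrophages, had levels of 3.67 and 4.47 in the microglia pools and was not detected on the other 4. Its mean of 4.07 ± 0.56 (SD, n = 2) was at least 4.9-fold above colon macrophages (log2 change 2.43, SE 0.34, limma adjusted p = 0.00637) and at least 6.1-fold above liver macrophages (fitted log2 change 2.43, limma adjusted p = 0.00464). Its microglia arrays lay further apart than those of the other 3 members.

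miR-467a-3p was the only one of the 4 with a measured level outside microglia. The other arm, miR-467a-5p, was not detected on any array. The levels of miR-467a-3p were 4.86 and 5.01 in the microglia pools and 2.58 and 2.37 in the colon pools, and it was not detected in the liver pools. Microglia averaged 4.93 ± 0.11 and colon macrophages 2.47 ± 0.14 (SD, n = 2 each), a 5.49-fold difference (log2 change 2.46, SE 0.25, limma adjusted p = 0.00226). Against liver macrophages the difference was at least 11.1-fold (fitted log2 change 3.29, limma adjusted p = 0.000933). Colon over liver macrophages was at least 2.02-fold for this member by that bound and was not called (fitted log2 change 0.83, limma adjusted p = 0.108).

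A group in which a miRNA was not detected stands at the floor with an SD of 0, so the SE and p of such changes may be too small. The 5 neuronal marker miRNAs were also detected most often in microglia: 4 and 4 of them were detected in the microglia pools, 2 and 1 in the colon pools and 1 and 1 in the liver pools. Their summed level was 5.99 and 5.99 in the microglia pools, 3.98 and 3.26 in the colon pools, and 3.60 and 4.79 in the liver pools, and miR-137-3p, one of them, was not detected on any array. Another, miR-128-3p, was at 4.67 and 4.77 in the microglia pools and at 4.79 on liver replicate 2. Both oligodendrocyte markers were detected on every array. The summed level of that pair was 7.57 and 7.62 in microglia, 6.28 and 6.29 in colon and 6.79 and 7.83 in liver pools. The part of brain cells other than microglia in the 4 members' levels was not tested. The 5 non-members nearest to miR-467e-5p by Pearson's r over the 6 arrays, out of 387 compared, were miR-455-5p (1.0), miR-190a-5p (0.9996), miR-181a-1-3p (0.9996), the neuronal marker miR-9-5p (0.9996) and miR-744-5p (0.9986). Such values arise readily where 4 of the 6 arrays stand at or near the floor, and they are a description over arrays that share that floor.

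**Figure D3:**
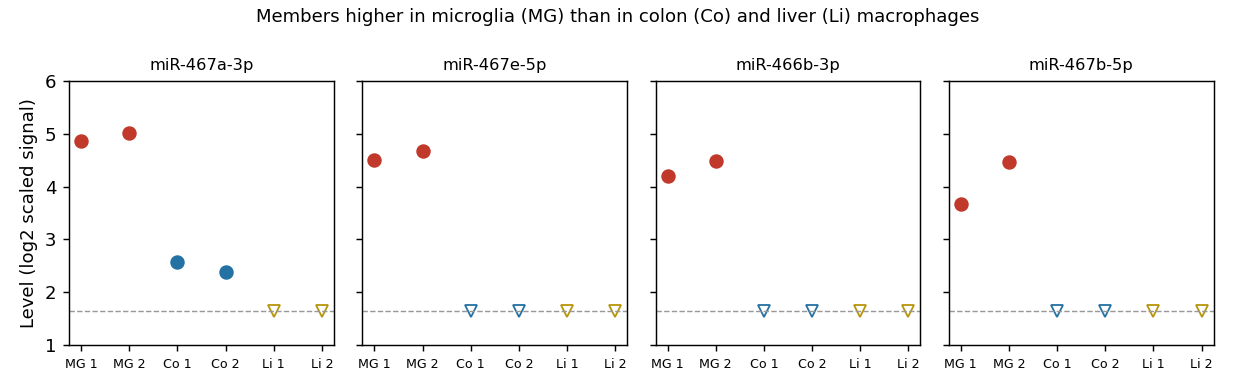
Level (log2 scaled signal, vertical axis) of the 4 members higher in microglia on each array (MG, microglia; Co, colon; Li, liver macrophages; horizontal axis). Filled points are detected values, open triangles are arrays without detection drawn at the floor of 1.64 (dashed line); miR-467a-3p alone has filled points outside microglia, at 2.58 and 2.37.

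The 9 members lower in microglia than in colon macrophages included the pair detected everywhere, miR-466i-5p and miR-669n, both encoded outside Sfmbt2. miR-466i-5p had levels of 9.31 and 9.20 in the microglia pools and 11.25 and 11.49 in the colon pools, and its liver levels were 11.16 and 9.86. Liver replicate 1 stood with the colon arrays and liver replicate 2 between them and microglia. Microglia averaged 9.26 ± 0.08 and colon macrophages 11.37 ± 0.17 (SD, n = 2 each), a log2 change of -2.11 (SE 0.48, limma adjusted p = 0.023), which is 4.32-fold lower in microglia.

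miR-669n, whose sequence above holds UGUGUGUG, had levels of 5.28 and 5.16 in the microglia pools, 7.22 and 7.58 in the colon pools, and 7.32 and 5.57 in the liver pools. The microglia and colon arrays were well apart, and the liver arrays again fell on either side. The means were 5.22 ± 0.08 in microglia and 7.40 ± 0.25 in colon macrophages (SD, n = 2 each), a log2 change of -2.18 (SE 0.60, limma adjusted p = 0.0376) or 4.53-fold lower in microglia. Against liver macrophages neither was called: miR-466i-5p changed by -1.26 against a liver mean of 10.51 ± 0.92 (limma adjusted p = 0.0738), and miR-669n by -1.22 against 6.44 ± 1.24 (limma adjusted p = 0.141). In a limma fit over the 248 miRNAs detected on all arrays only, both passed against liver macrophages (adjusted p = 0.0233 and 0.0469).

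miR-466i-5p also made up a large part of the families' signal. Its signal was 53.4% and 47.4% of all member signal in the microglia pools, 72.6% and 69.9% in the colon pools, and 71.6% and 64.2% in the liver pools. All members together held 0.493% and 0.446% of the detected signal in the microglia pools, 1.15% and 1.34% in the colon pools, and 1.04% and 0.339% in the liver pools. These are shares of fluorescence and not of molecules. Liver replicate 2 again stood with the microglia arrays rather than with liver replicate 1.

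The other 7 members lower in microglia than in colon macrophages were 5p rows that neither microglia array detected. miR-669l-5p had levels of 5.50 and 5.87 in the colon pools and 5.50 on liver replicate 1, and was not detected on either microglia array or on liver replicate 2. Microglia were at least 13.7-fold below the colon mean of 5.68 ± 0.26 (SD, n = 2), with a log2 change of -4.04 (SE 1.23, limma adjusted p = 0.0464). miR-466m-5p had levels of 5.21 and 5.58 in the colon pools and 5.21 on liver replicate 1, and microglia were at least 11.2-fold below the colon mean (log2 change -3.76, limma adjusted p = 0.0464).

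The remaining 5 followed the same course at other levels. miR-669e-5p had 4.74 and 5.22 in the colon pools and 4.78 on liver replicate 1, with microglia at least 8.38-fold below colon macrophages (limma adjusted p = 0.0464). miR-669b-5p had 4.54 and 5.06 in the colon pools and 4.52 on liver replicate 1, with microglia at least 7.4-fold lower than colon macrophages (limma adjusted p = 0.0447). In each of them liver replicate 1 lay within or close to the colon range.

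miR-669o-5p had 3.96 and 4.31 in the colon pools and 3.87 on liver replicate 1, and microglia were at least 4.67-fold below colon macrophages (limma adjusted p = 0.0447). miR-467c-5p had 3.56 and 3.97 in the colon pools and 3.38 on liver replicate 1, and microglia were at least 3.61-fold below colon macrophages (limma adjusted p = 0.0404). miR-466c-5p had 3.25 and 3.77 in the colon pools and 3.21 on liver replicate 1, and microglia were at least 3.04-fold below colon macrophages (limma adjusted p = 0.046). None of the 3 was detected in microglia or on liver replicate 2.

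Another 5 members with the same detection pattern did not pass the test between microglia and colon macrophages. miR-466h-5p, from a miRNA reported to promote apoptosis in cultured mouse cells, had levels of 4.38 and 4.69 in the colon pools and 4.72 on liver replicate 1 (limma adjusted p = 0.0606). miR-466j, UG-rich in the sequence above, had 4.19 and 4.05 in the colon pools and 4.40 on liver replicate 1 (limma adjusted p = 0.0676). miR-669f-5p, miR-669k-5p and miR-466f-5p had colon levels of 3.09 and 3.64, 2.75 and 3.35, and 2.68 and 2.82, with limma adjusted p-values of 0.0509, 0.091 and 0.0509. By the bound used above, microglia were at least 6.16-fold below colon macrophages for miR-466h-5p and at least 4.63-fold for miR-466j. It was at least 2.74-fold for miR-669f-5p, 2.2-fold for miR-669k-5p and 1.79-fold for miR-466f-5p. The SE of this test also takes in the spread of the liver arrays, which were split for these members. In a fit of the microglia and colon arrays alone, 14 of 27 members were lower in microglia, against 133 of all 379 miRNAs. By the definition of this pattern, none of its 12 members was detected in microglia, called or not.

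Markers of other cells were seen in the colon group too: of 4 smooth muscle and fibroblast markers 1 and 0 were detected in the microglia pools, 4 and 4 in the colon pools and 3 and 3 in the liver pools, with a summed level of 5.00 and 1.64, 9.02 and 8.47, and 7.67 and 7.06. Of 5 epithelial markers 5 and 1 were detected in the microglia pools, 5 and 5 in the colon pools and 2 and 2 in the liver pools, with a summed level of 9.22 and 2.85, 11.62 and 11.11, and 3.96 and 5.10. Their part in the members' levels was not tested. The 13 calls between microglia and colon macrophages changed with single arrays: leaving out either colon array gave 3 calls in each case, leaving out microglia replicate 1 gave 5 calls and microglia replicate 2 gave 4, while leaving out liver replicate 1 or 2 gave 18, of which 14 were lower.

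Colon over liver macrophages gave no call among the 24 members tested by limma, against a background of 5.3% higher and 4.8% lower in colon macrophages, 10.1% in either direction, among 396 miRNAs. At an unadjusted p under 0.05 there was 1, miR-467a-3p. The 24 changes ran from 0.18 to 2.11 on the log2 scale, with a median of 0.86 against -0.04 for all miRNAs tested, but 13 of the 24 passed the detection filter only through the colon arrays, where they are high. Over the 11 members detected on all arrays the median was 0.44, against 0.06 for all 248 such miRNAs. Arrays did not overlap for 15 of the 24, against 59.6% of all miRNAs tested.

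**Figure D4:**
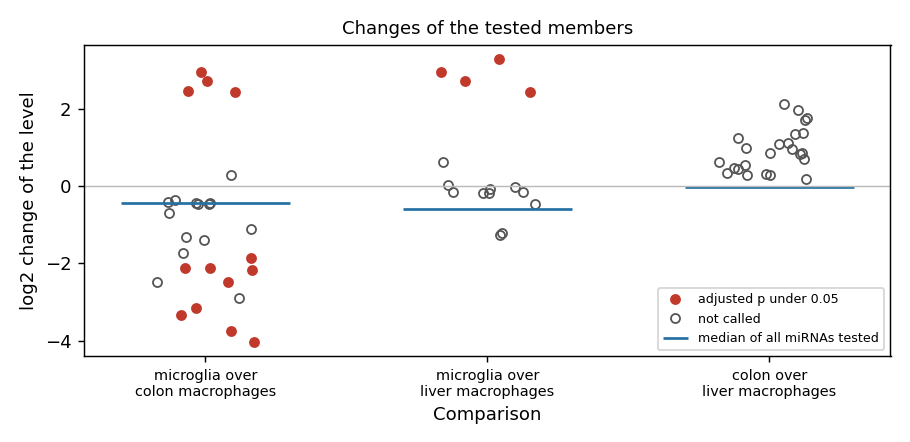
Log2 change of each tested member (points, vertical axis) in the 3 comparisons (horizontal axis, 27, 15 and 24 members), filled where the limma adjusted p was under 0.05, with the median of all miRNAs tested as a blue line. In microglia over colon macrophages 4 filled points lie above 0 and 9 below, in microglia over liver macrophages 4 above, and in colon over liver macrophages no point is filled.

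The liver arrays differed from each other for these members. For the 12 members of the colon and liver replicate 1 pattern the liver SD reached 2.73 (miR-669l-5p, mean 3.57), against 0.26 in colon macrophages. Without liver replicate 2, 14 of 27 members tested were lower and 4 higher in microglia than in the remaining liver array, where the background was 32.8% lower and 23.0% higher among 408 miRNAs. Of the 14, 12 were the members detected on that liver array and not in microglia, which entered the test only through it, and the other 2 were miR-466i-5p and miR-669n. There miR-669l-5p changed by -3.86 (limma adjusted p = 0.00523), miR-466i-5p by -1.91 (limma adjusted p = 0.00828) and miR-669n by -2.10 (limma adjusted p = 0.0106). Without liver replicate 1, 4 of 15 members were higher and 0 lower in microglia, against 15.2% higher and 30.6% lower of all 408.

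Colon and liver macrophages were compared with each liver array alone as well. Members not detected on the liver array that was kept entered the test only through the colon arrays, where they are high. Such members could come out only as higher in colon macrophages. Without liver replicate 1, of 24 members tested, 12 were higher in colon macrophages and 0 lower, against a background of 10.2% higher and 15.8% lower among 423 miRNAs. Of these 12, 10 were members not detected on the remaining liver array, and the other 2 were miR-466i-5p and miR-669n. miR-669l-5p changed by 4.04 (limma adjusted p = 0.0106), miR-466m-5p by 3.76 (limma adjusted p = 0.0107), miR-669n by 1.83 (limma adjusted p = 0.0255) and miR-466i-5p by 1.51 (limma adjusted p = 0.0203). Without liver replicate 2 no member was called between colon and liver macrophages, where the background was 6.39% higher and 8.35% lower, and the median change was 0.24. In these fits the single liver array is assumed to vary like the other groups. Which of the liver arrays is closer to the liver population at large cannot be told apart with 2 arrays.

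The liver difference ran one way. Among members detected in both liver pools, all 11 were brighter on replicate 1, by a median of 0.18 and by 0.02 to 1.75. Of the 348 other miRNAs detected in both liver pools 115 were brighter on replicate 1, and their median difference was -0.41. In microglia the members' median difference of replicate 1 minus replicate 2 was -0.21 against -0.18 for the others, and in colon macrophages -0.45 against 0.15. The members' split was one-sided there too. In colon macrophages 2 of 24 members were brighter on replicate 1, against 213 of 326 others. In microglia 2 of 15 members were, against 76 of 267 others. The lymphocyte marker miR-150-5p was at 8.97 and 7.09 on liver replicates 1 and 2, and the hepatocyte marker miR-122-5p at 11.07 and 11.82. Their part in the liver difference was not tested.

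The miRNAs outside the families that hold UGUGUGUG were described beside miR-669n, the only detected member with a matched sequence that holds it. Of the 12 members detected in both colon pools and liver replicate 1 only, miR-466j alone had a matched sequence. Its longest alternating run of U and G is 7 bases. Whether the other members hold the motif was not tested. The 5 others that hold UGUGUGUG are printed with that motif in capitals.
miR-1187: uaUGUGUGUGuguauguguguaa
miR-3082-5p: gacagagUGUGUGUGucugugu
miR-574-5p: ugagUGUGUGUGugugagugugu
miR-32-3p: caauuuagUGUGUGUGauauu
miR-672-5p: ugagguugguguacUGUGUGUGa

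None of these 5 lies on chromosome 2, and none shares a seed with the 7 members printed above. On GRCm38.p6 miR-1187 lies at chr5:82798964-82798986 on the minus strand, miR-574-5p at chr5:64970328-64970350 on the plus strand and miR-3082-5p at chr17:25831406-25831427 on the minus strand. miR-32-3p lies at chr4:56895232-56895252 and miR-672-5p at chrX:104116228-104116250, both on the minus strand.

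miR-574-5p had levels of 7.91 and 7.66 in the microglia pools, 9.97 and 10.24 in the colon pools, and 9.93 and 8.45 in the liver pools, with microglia lower than colon macrophages by limma (log2 change -2.31, adjusted p = 0.0237). miR-1187 had 6.89 and 6.72 in the microglia pools, 8.97 and 9.23 in the colon pools, and 8.94 and 7.45 in the liver pools (limma log2 change of microglia over colon macrophages -2.30, adjusted p = 0.0237). miR-3082-5p had 6.98 and 6.68 in the microglia pools, 9.15 and 9.47 in the colon pools, and 9.05 and 7.31 in the liver pools (limma log2 change of microglia over colon macrophages -2.48, adjusted p = 0.0278). In all 3, liver replicate 1 lay beside the colon arrays and liver replicate 2 closer to the microglia arrays.

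miR-32-3p and miR-672-5p were detected only in both colon pools and liver replicate 1. miR-32-3p had 5.37 and 5.84 in the colon pools and 5.67 on liver replicate 1 (limma log2 change of microglia over colon macrophages -3.96, adjusted p = 0.0516). miR-672-5p had 4.35 and 4.91 in the colon pools and 4.78 on liver replicate 1 (limma log2 change of microglia over colon macrophages -2.99, adjusted p = 0.0603). Of the 5, 3 were thus lower in microglia than in colon macrophages, where 28.5% of all 379 miRNAs tested were, 0 of 3 tested passed between microglia and liver macrophages and 0 of 5 between colon and liver macrophages.

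The only other non-members detected in both colon pools and liver replicate 1 alone were miR-6348 and miR-1927, singled out after their detection was seen. miR-6348, at chr1:168490740-168490761 on the plus strand, ends in an alternating run of G and U of 8 bases, in capitals here.
miR-6348: ucagccuuuauaagGUGUGUGU

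Its levels were 4.21 and 4.64 in the colon pools and 4.83 on liver replicate 1. miR-1927 had 3.93 and 4.18 in the colon pools and 4.75 on liver replicate 1. Alternating runs of U and G of at least 8 bases occurred in 7 of the 1010 non-members with a sequence (0.693%). Runs of at least 7 bases, the length in miR-466j, occurred in 9 (0.891%). The cut of 8 is wider than the motif UGUGUGUG and was set with miR-6348 known. A link between such runs and the detection pattern was not tested. Of the 7 with at least 8 bases, miR-1187, miR-3082-5p and miR-574-5p were detected on all 6 arrays. miR-32-3p, miR-672-5p and miR-6348 were detected in both colon pools and liver replicate 1 only, and miR-6348 was singled out for that. miR-3097-5p was detected on no array. Among the members the UG-rich miR-466k was not detected either.

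**Figure D5:**
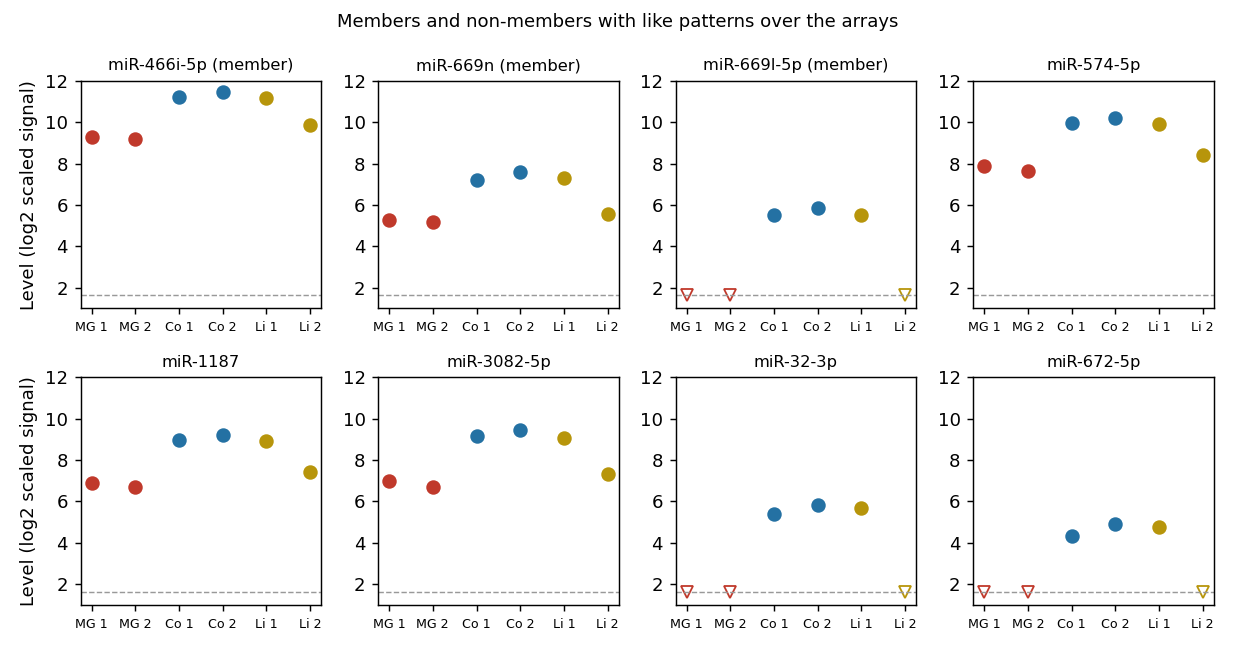
Level (log2 scaled signal, vertical axis) of 3 members and of the 5 non-members that hold UGUGUGUG on each array (MG, microglia; Co, colon; Li, liver macrophages; horizontal axis). Filled points are detected values and open triangles arrays without detection at the floor of 1.64; in every panel liver replicate 1 lies beside the colon arrays and liver replicate 2 below it.

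Of the 11 members detected on all arrays, the 9 beside miR-466i-5p and miR-669n are CA-rich or 3p rows or have no arm in their name, and none of them was called in any of the 3 comparisons as fitted here. With spike-in scaling 8 of the 9, all but miR-669f-3p, were called lower in microglia than in colon macrophages and 6 lower than in liver macrophages, and in the fit over miRNAs detected on all arrays 1 of the 9, miR-466g, was called lower than in colon macrophages (limma adjusted p = 0.0224). For microglia over colon macrophages their changes ran from -1.33 for miR-466g (limma adjusted p = 0.0665) to 0.29 for miR-669f-3p (limma adjusted p = 0.445), and the sign turned for miR-466g in the authors' deposited table and under quantile normalization, and for miR-669f-3p with no scaling and with spike-in scaling. For microglia over liver macrophages they ran from -0.47 for miR-466g (SE 0.47) to 0.62 for miR-669f-3p (SE 0.31, limma adjusted p = 0.143). With SEs of 0.27 to 0.47 these fits leave room for differences of the size printed, and a p above the threshold does not show equal levels.

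The CA-rich trio with printed sequences kept narrow ranges. miR-467f had levels of 6.31 and 6.50 in the microglia pools, 6.58 and 7.05 in the colon pools, and 6.51 and 6.46 in the liver pools. miR-466q had 5.71 and 5.94 in the microglia pools, 6.05 and 6.55 in the colon pools, and 5.86 and 5.84 in the liver pools. miR-466i-3p, the other arm of the hairpin that gives miR-466i-5p, had 5.41 and 5.70 in the microglia pools, 5.69 and 6.30 in the colon pools, and 5.59 and 5.45 in the liver pools. For the arms of this one precursor, microglia over colon macrophages was -2.11 for the 5p arm and -0.44 (SE 0.32, limma adjusted p = 0.282) for the 3p arm, and the difference between arms was not itself tested.

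Some 3p members of the cluster itself, miR-669c-3p, miR-669p-3p and miR-466h-3p, were alike in this. Others were not, such as miR-466b-3p and miR-467a-3p, which were higher in microglia. miR-669c-3p, from the family member reported to act on Myd88 mRNA in mouse microglia, had levels of 5.12 and 5.21 in the microglia pools, 5.26 and 5.78 in the colon pools, and 5.42 and 5.27 in the liver pools. miR-669p-3p had 6.12 and 6.29 in the microglia pools, 6.44 and 6.86 in the colon pools, and 6.39 and 6.36 in the liver pools. miR-466h-3p had 6.39 and 6.63 in the microglia pools, 6.79 and 7.17 in the colon pools, and 6.78 and 6.60 in the liver pools. Microglia over colon macrophages was -0.36, -0.45 and -0.47 for them, differences that turned positive under quantile normalization and in the authors' deposited table.

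miR-466f-3p had 4.73 and 5.11 in the microglia pools, 5.35 and 5.89 in the colon pools, and 5.19 and 4.99 in the liver pools. miR-466g had 2.49 and 3.45 in the microglia pools, 4.01 and 4.58 in the colon pools, and 3.78 and 3.09 in the liver pools, the widest spread within microglia among the 11. miR-669f-3p was the one whose microglia levels, 5.20 and 5.41, lay above those of liver macrophages, 4.82 and 4.55, and overlapped the colon levels of 4.74 and 5.28. Leaving out miR-466i-5p, miR-669n, miR-669f-3p and miR-466g, the 7 others detected on all arrays moved almost as one over the arrays, with pairwise r of 0.897 to 0.993 over 6 arrays and a range of 0.66 to 1.16 on the log2 scale. Those left out were picked with their levels known, so the likeness of the rest follows in part from that choice. Among all 11, r fell to -0.29, for miR-466i-5p with miR-669f-3p. These correlations are a description of arrays that share a scaling.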

How the data were processed

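miRNA levels came from 6 arrays, 2 per group, and the files name no genome build. Per the file headers, each array's deposited table holds for every miRNA an intensity (the total gene signal), its error and a detection flag, and intensities of 0.1 stand for miRNAs that were not detected. They were made with Agilent Feature Extraction 9.1, per the submitters' processing notes. The authors' deposited value table of 595 miRNAs holds log2 values (median 3.72, r = 0.992 with the log2 levels used here over miRNAs detected on all arrays). Its normalization is not stated in the labels, so it entered only as an alternative.

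From the intensities, 21 control rows were left out, each array was scaled by its 75th percentile among the 248 miRNAs that all 6 arrays detected, a floor of 3.12 scaled units (1.64 on the log2 scale) was set and log2 was taken. The floor is the median of the 6 arrays' lowest detected signals. A fold against a group detected on neither array sets the brighter mean against the mean of each dimmer array's lowest detected signal, and is written "at least". 3 group means were fitted over all 6 arrays with limma 3.58.1 in R 4.3.3 and moderated by eBayes (degrees of freedom: 3 residual, 2.20 prior). The fit covered the whole table, and p-values were adjusted over every miRNA that both arrays of 1 or both groups of a comparison detected (379, 382 and 396), with only the members' results printed. The fit was tested on simulated data.

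The members and lists were chosen with earlier results of these data known, and no test was made over the list. Every member tested in at least 1 comparison is named, and those called have every array's level given. Replicate numbers are not tied across groups in the labels. Nearest patterns are the 5 non-members with the highest r to the member with the lowest p in microglia over colon macrophages. Sequences and gene places are RefSeq's on GRCm38.p6, where 1212 of the 1247 array miRNAs had a gene of the same name and 1017 a mature sequence. That gene table gives no strand. Alternatives were other scalings, floors and detection filters, the authors' table, other forms of the limma fit, a replicate block and leaving out each array.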

Additional observations from a re-analysis of the deposited data

How the results depend on the processing

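Precision is limited by 2 arrays per group, and all folds against undetected groups rest on the floor. Scaling to the 75th percentile over all miRNAs was not run, because on 1 array that percentile is the placeholder of undetected miRNAs. Without a detection filter most variances are 0, so that fit is of little use. The 4 members higher in microglia kept their sign under every alternative that tested them and were called in 18 of 19 settings against liver macrophages; against colon macrophages miR-466b-3p, miR-467a-3p and miR-467e-5p were called in 18 and miR-467b-5p in 15. The 9 lower in microglia than in colon macrophages also kept their sign, but were called in 6 to 11 of 19 settings. Among them miR-466i-5p ran between -2.71 and -1.72 and miR-669l-5p between -5.71 and -3.04. Where 1 group of a comparison did not detect a member, its sign was set by detection, so keeping it adds no support. Of these members only miR-467a-3p, miR-466i-5p and miR-669n were detected in both microglia and colon macrophages. Causes of the changes below were not tested, apart from fewer arrays or miRNAs where a setting leaves them out.

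The 13 calls of microglia over colon macrophages became 4 (4 higher, 0 lower) with median scaling, 4 with the authors' value table and 4 with quantile normalization, 15 (4 higher, 11 lower, 7 of them among the 13) with spike-in scaling, 7 with the floor halved, 5 with it doubled, 3 without a detection filter and 3 over miRNAs detected on all arrays only, and 3 to 18 when single arrays were left out. The median change of -1.33 became -2.11 with the floor halved, 0.0 without a filter and -0.47 over miRNAs detected on all arrays. For microglia over liver macrophages the 4 calls became 12 with spike-in scaling and 2 over miRNAs detected on all arrays, and 4 to 18 when single arrays were left out, with 18 without liver replicate 2. The median of -0.08 became 0.36 with median scaling, -0.45 with no scaling, -0.80 with spike-in scaling, 0.31 with the authors' table and 0.32 with quantile normalization, and -0.83 to 0.055 without single arrays. Over all miRNAs tested the median of microglia over colon macrophages was -0.43, against -0.05 with median scaling, -0.76 with none, -1.02 with spike-in scaling, -0.02 in the authors' table and 0.02 with quantile normalization. Colon over liver macrophages gave 1 call with the floor halved and 0 to 12 without single arrays, 12 without liver replicate 1. Liver macrophages had 11 members detected on both arrays and 23 on at least 1. The members' share of signal on microglia replicate 2 was 0.410% over rows detected on all arrays. Same-numbered arrays deviated together with r = 0.21 (microglia and colon), 0.07 (microglia and liver) and -0.09 (colon and liver) over 248 miRNAs. Such values cannot show whether same-numbered pools were handled together. With the replicate block the calls were 12, 4 and 0.

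Of 1155 alternative values of single members 960 kept sign and side of the threshold, 96 lost and 53 gained a call, and 46 changed sign, none of them called before or after. For microglia over colon macrophages the authors' table gave 0.17 for miR-466g, 0.10 for miR-466h-3p, 0.10 for miR-467f, 0.065 for miR-669c-3p and 0.0050 for miR-669p-3p. Quantile normalization gave 0.070, 0.085, 0.091, 0.080 and 0.027 for the same 5. Median scaling gave 0.031 for miR-669c-3p, and for miR-669f-3p no scaling gave -0.039 and spike-in scaling -0.30. For microglia over liver macrophages median scaling, the authors' table and quantile normalization gave 0.27, 0.17 and 0.18 for miR-466f-3p, 0.25, 0.31 and 0.28 for miR-466h-3p, 0.41, 0.24 and 0.26 for miR-466q, 0.36, 0.43 and 0.39 for miR-467f, 0.26, 0.14 and 0.15 for miR-669c-3p, and 0.27, 0.30 and 0.32 for miR-669p-3p. miR-466g was 1.24 in the authors' table and 0.97 with quantile normalization. miR-466i-3p was -0.34 with no scaling and -0.69 with spike-in scaling, and miR-669f-3p -0.10 with spike-in scaling. Without single arrays, microglia over liver macrophages ran from -0.35 to 0.022 for miR-466f-3p, -0.95 to 0.016 for miR-466g, -0.11 to 0.18 for miR-466i-3p, -0.15 to 0.088 for miR-466q and -0.17 to 0.015 for miR-467f. Colon over liver macrophages then ran from -0.19 to 2.89 for miR-466h-5p, -0.28 to 2.48 for miR-466j, -0.080 to 0.44 for miR-669c-3p and -0.16 to 1.41 for miR-669k-5p.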
